A study of Mus musculus with 10 samples.

Results

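The keratin genes of mouse reprogramming cells are described here across 5 lines and their passages. The members were all gene symbols made of Krt and a number, and 37 of the 18901 genes in the table matched. They comprised 20 type I and 17 type II keratin genes. The rule uses the name alone, and the family was chosen with earlier results of these data known. A further 9 symbols that begin with Krt, among them Krt6a, Krt6b and the keratin-associated proteins, did not match and were left out.

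RNA was sequenced from 10 libraries, 2 for each line at different passages. All lines came from Oct4-GFP fibroblasts of a cross of mf1 and 129. MEF, the embryonic fibroblasts from which reprogramming started, were grown in serum and sampled at passages 2 and 4. The 'control' iPS line was 1 clone made with Oct4, Sox2, Klf4 and c-Myc retroviruses, and clones 1 and 2 ('rNetrin-1-derived' iPS) were made with the same viruses in the presence of recombinant Netrin-1, a laminin-related secreted ligand. The pre-iPS line, taken here as partly reprogrammed cells, and the 3 iPS lines were sampled at passages 5 and 25 in medium with serum replacement and LIF. Each iPS line was 1 clone, so a p-value between lines measures the spread between passages of single clones and not between clones made independently. A p-value of the passage comparison measures how far the passage difference varies from line to line. Anything else that the libraries of the same passage share cannot be told apart from passage. Where the passage is a block, the passage difference that the lines share is taken out of the error. Values are normalised read counts, 1 library per value, and 1 read was worth 0.888 to 1.18 of a normalised count in the 10 libraries.

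Keratins are the intermediate filament proteins of epithelial cells. A type I chain must pair with a type II chain to form a filament. Simple epithelia and early embryonic epithelia such as trophectoderm use KRT8 with KRT18 or KRT19. Basal cells of stratified (squamous) epithelia use KRT5 with KRT14, cells that leave the basal layer of the epidermis use KRT1 with KRT10, and the hair follicle has keratins of its own. Fibroblasts use vimentin in place of keratins. In the mouse the type I genes lie together on chromosome 11 and the type II genes on chromosome 15, with the exception of the type I gene Krt18, which is the neighbour of Krt8 on chromosome 15.

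The promoters of 5 keratin genes that the results turn on are given first, as RefSeq has them for GRCm38.p6. Each runs from 250 bases before the annotated start to 30 bases after it, 5′ to 3′ on the strand of the gene. Krt7, Krt8, Krt18 and Krt20 are the simple keratin genes with an entry, and they were all lower at passage 25. Krt13 is the keratin gene that separated the control line from the other reprogrammed lines. Krt7 is chr15:101412153-101412432 (plus strand), Krt8 is chr15:102004313-102004592 (minus), Krt18 is chr15:102027966-102028245 (plus), Krt20 is chr11:99438124-99438403 (minus) and Krt13 is chr11:100121537-100121816 (minus). Capitals mark matches on either strand to 5 motifs, some of which overlap. The TATA box was searched as TATAAA. The GC box of Sp factors was searched as GGGCGG. The AP-1 motif was searched as TGANTCA. The AP-2 motif was searched as GCCNNNGGC. The motif of Klf factors was searched as CCACCC.
Krt7: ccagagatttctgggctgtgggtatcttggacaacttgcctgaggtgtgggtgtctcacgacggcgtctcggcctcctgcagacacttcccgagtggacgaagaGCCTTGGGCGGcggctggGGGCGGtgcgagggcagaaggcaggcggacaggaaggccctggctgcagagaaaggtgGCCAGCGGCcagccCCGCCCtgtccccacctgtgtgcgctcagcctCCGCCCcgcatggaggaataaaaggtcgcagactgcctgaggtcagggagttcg
Krt8: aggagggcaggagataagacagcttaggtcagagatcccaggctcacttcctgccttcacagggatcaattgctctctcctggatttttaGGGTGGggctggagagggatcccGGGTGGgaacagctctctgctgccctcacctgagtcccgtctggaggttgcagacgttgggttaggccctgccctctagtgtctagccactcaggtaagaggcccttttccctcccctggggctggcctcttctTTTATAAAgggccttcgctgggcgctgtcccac
Krt18: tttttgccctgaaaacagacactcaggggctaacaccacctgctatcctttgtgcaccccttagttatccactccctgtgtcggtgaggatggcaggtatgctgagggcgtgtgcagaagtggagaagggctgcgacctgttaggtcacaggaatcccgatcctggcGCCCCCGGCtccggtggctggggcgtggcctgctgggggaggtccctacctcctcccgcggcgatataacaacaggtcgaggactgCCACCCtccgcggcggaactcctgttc
Krt20: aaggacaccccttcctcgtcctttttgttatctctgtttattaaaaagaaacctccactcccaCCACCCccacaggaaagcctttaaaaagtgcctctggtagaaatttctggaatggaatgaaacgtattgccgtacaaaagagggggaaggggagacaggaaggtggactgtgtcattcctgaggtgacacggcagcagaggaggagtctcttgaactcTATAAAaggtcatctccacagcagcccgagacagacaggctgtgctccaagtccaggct
Krt13: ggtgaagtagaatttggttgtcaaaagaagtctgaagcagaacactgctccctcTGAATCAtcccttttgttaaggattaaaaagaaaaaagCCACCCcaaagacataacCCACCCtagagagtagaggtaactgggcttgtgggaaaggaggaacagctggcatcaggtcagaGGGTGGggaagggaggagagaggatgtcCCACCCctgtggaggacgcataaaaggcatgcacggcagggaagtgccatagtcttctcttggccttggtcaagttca

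RefSeq entries were found for 27 of the 37 genes, with 28 promoters because Krt13 has a pair of annotated starts. The Krt7 window held 4 matches to the GC box, and the other simple keratin windows held none. TATAAA was present in 13 of the 28 keratin windows of 300 bases (46.4%) and in 13.6% of 32851 promoters of the same length. On the coding strand between 40 and 20 bases before the start it was present in 9 of 28 keratin windows, which were those of Krt10, Krt12, Krt20, Krt25, Krt26, Krt28, Krt71, Krt73 and Krt76, against 1.99% of all promoters. GGGCGG was present in 2 of 28 keratin windows against 35.7% of all, and CCACCC in 14 of 28 against 31.5%. TGANTCA (2 of 28 against 7.81%) and GCCNNNGGC (4 of 28 against 16.6%) stood at or a little under their shares among all promoters. A match to letters is a description of the sequence and not a bound site.

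Of the 37 keratin genes, 25 reached 10 in 2 or more libraries and were tested, and 12 did not. All 5 simple keratin genes (Krt7, Krt8, Krt18, Krt19, Krt20) and all 5 basal and stress keratin genes (Krt5, Krt14, Krt15, Krt16, Krt17) were tested. Of 13 suprabasal, mucosal and corneal keratin genes, 9 were tested, and Krt2, Krt9, Krt24 and Krt76 stayed low. Of the hair keratins, 1 of 3 hair shaft genes (Krt84) and 2 of 8 root sheath genes (Krt26, Krt71) were tested. The genes left under the filter were Krt36 and Krt83 of the hair shaft and Krt25, Krt27, Krt28, Krt73, Krt74 and Krt75 of the root sheath. Their highest values were 13.4 for Krt25 in pre-iPS at passage 25 and 11.5 for Krt75 in control iPS at passage 25, and the other untested keratin genes did not exceed 8.35 in any library. The remaining members were Krt23, Krt42 and Krt222, all tested.

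Simple keratins made up most of the RNA of the 37 keratin genes in every library. Keratin reads came to 939 to 1548 RPM (reads per 1000000 reads on genes) in the 4 reprogrammed lines at passage 5, to 321 to 514 at passage 25 and to 31.5 to 32.5 in MEF. The 4 libraries at passage 5 thus did not overlap with the 4 at passage 25. The share of simple keratins among keratin reads was 64.7 to 86.5%, and hair shaft and root sheath keratins never reached 1% (0.0718 to 0.974%). Krt6a and Krt6b, which did not match the rule, are outside these totals. In bulk RNA, fewer keratin-expressing cells and less keratin RNA per cell cannot be told apart.

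**Figure D1:**
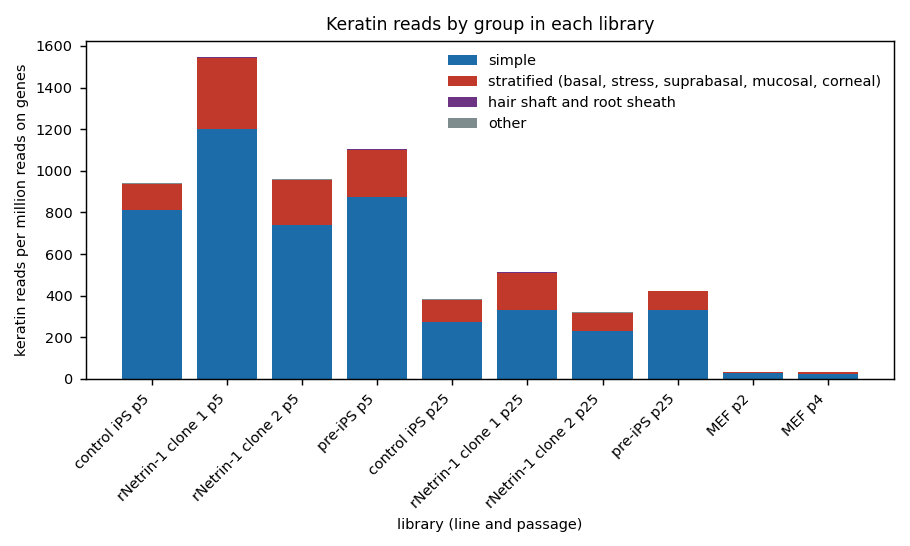
Keratin reads in RPM (vertical axis) in each of the 10 libraries, stacked by keratin group. The passage 5 bars stand at 939 to 1548, the passage 25 bars at 321 to 514 and the MEF bars at 31.5 and 32.5, and the simple keratins are the larger part of each.

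Per length of transcript, Krt19 and Krt8 led, at means of 148 and 135 RPKM (RPM divided by the length in kilobases) over the 8 iPS and pre-iPS libraries. Krt18 (37.5) and Krt17 (35.5) followed, then Krt13 (19.8), Krt16 (13.5), Krt7 (8.92), Krt80 (7.18), Krt20 (6.21), Krt14 (6.15), Krt1 (4.84), Krt5 (3.97) and Krt10 (2.49). All other members lay at or below 1.04, the mean of Krt42. The order of neighbours is not firm. Krt19 ran from 41.3 to 320 and Krt8 from 54.5 to 246, so these genes overlapped, as did Krt18 (14.4 to 83.4) and Krt17 (14.2 to 66). On the same per-length scale type I members exceeded type II members in each of the 10 libraries, by ratios of 1.19 to 2.14. The type II sum leaves out Krt6a and Krt6b, which did not match the rule, so the ratio holds for the members alone. In MEF the type II sum was 5.32 and 5.3, of which Krt7 gave 3.91 and 3.94. Its length was taken as 4094 bases, the longest of the members, and a shorter one would lower the MEF ratios. The type II partner Krt8 exceeded the type I partner Krt18 by 2.31 to 6.56 times in the iPS and pre-iPS libraries, and the ratio was 0.766 and 0.751 in MEF. Krt5 to Krt14 ranged from 0.183 to 1.64 and Krt1 to Krt10 from 0.598 to 3.22 in the same 8 libraries; the lowest Krt1 to Krt10 ratio was that of clone 2 at passage 25, and the other 7 were 1.3 or more. Of the 50-base stretches of Krt8 transcripts 29.7% were shared with any other gene, most of all with the pseudogene Krt8-ps. For Krt16 the share was 37.6%, most of all with Gm11597, so the levels of these genes are uncertain. The shares with any other gene were 42% for Krt12, 13.9% for Krt14 and 12.2% for Krt5, and 0 for Krt19 and Krt13. The gene that shared most was A830036E02Rik for Krt12, Krt16 for Krt14 and Krt6a for Krt5.

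**Figure D2:**
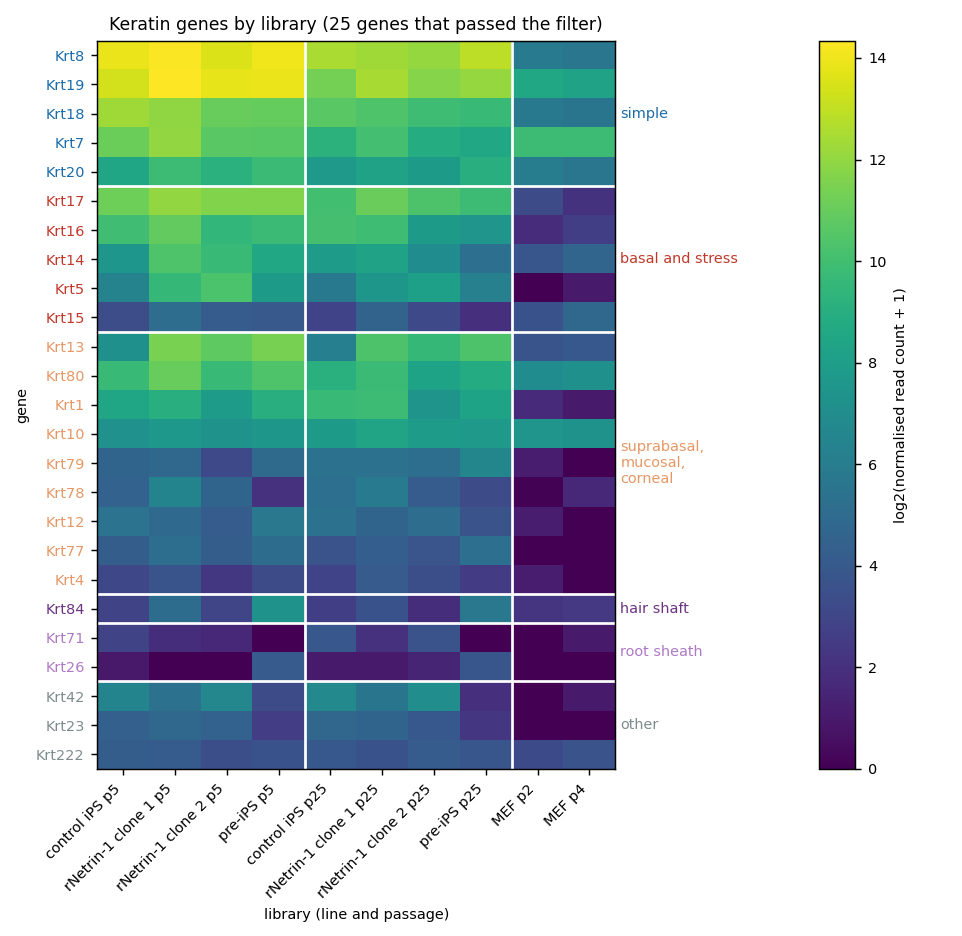
Heat map of log2(normalised read count + 1) for the 25 keratin genes that were tested (rows, ordered by group and mean) in the 10 libraries (columns: 4 at passage 5, 4 at passage 25, then MEF). Krt8 and Krt19 are highest, and in 18 of the 25 rows both MEF columns are below all others, the exceptions being Krt7, Krt10, Krt15, Krt26, Krt71, Krt84 and Krt222. The share of all genes with that pattern was not counted, and 14 of the 25 genes reached 10 in no MEF library, so the filter favoured it.

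MEF were first compared with the 3 iPS lines. These groups differ in medium and passage number as well as in reprogramming, and the parts of these cannot be told apart. Of the 25 keratin genes 19 were lower in MEF and 0 were higher, where 26.6% of all 17075 genes tested were called lower and 21.6% higher. A gene was called at an adjusted p under 0.05 and a log2 fold change of at least 1 in size, with limma on log2(value + 1). At an unadjusted p under 0.05, 0 keratin genes were higher, and edgeR called 0. The median keratin log2 fold change was -4.22 against -0.087 over all genes, and -4.19 with the genes at 0 reads in both MEF libraries set to their bound. The filter bears on this count, since 14 of the 25 genes reached 10 in no MEF library and were tested only for their level in the reprogrammed lines. Of the 11 that reached 10 in a MEF library, 7 were lower in MEF. Among the simple keratins Krt8 was 15746, 19819 and 12178 at passage 5 in control iPS, clone 1 and clone 2, and 5760, 5065 and 4339 at passage 25, against 56.5 and 47.6 in MEF. Krt8 was thus above MEF by over an order of magnitude in every iPS library (limma log2 fold change -7.39 ± 0.617 SE, adjusted p = 5.7e-06).

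Krt7, the simple keratin of glandular and ductal epithelia, was the exception among the simple keratins. It was 898 and 901 in MEF, inside the range of 470 to 4123 in the iPS libraries (limma log2 fold change -0.51, 95% interval -2.25 to 1.22, adjusted p = 0.548). Per length it stood at 3.91 and 3.94 RPKM in MEF, and only Krt19 (4.17 and 3.46) was near it there. The place of Krt7 beside Krt19 depends on the transcript length of 4094 bases used for Krt7. Krt10 (174 and 164 in MEF, 151 to 335 in iPS) also overlapped. Neither passed the test, and nor did Krt15 (11.3 and 27.2 in MEF), Krt222 (8.44 and 11.6), Krt26 (at 0 in MEF and at most 1.78 in iPS, under the floor of 3 reads) or Krt84 (3.59 and 4.22).

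The basal and stress keratins were lower in MEF in 4 of 5 cases. Krt17, a keratin of hair follicles and wounded epidermis, had the largest keratin difference on the log2(value + 1) scale, at 9.2 and 3.24 in MEF and 1023 to 4210 in the iPS libraries (limma log2 fold change -8.32 ± 0.6, adjusted p = 2.27e-06). Krt5 had 0 reads in the MEF library at passage 2 and a value of 1.05 at passage 4 (limma -7.42 ± 0.725, adjusted p = 1.55e-05), and with edgeR on whole reads its difference was larger than that of Krt17 (-8.73 and -8.49). Krt23 and Krt77 were at 0 reads in both MEF libraries, and against a floor of 3 reads per library they were at least 6.63-fold and 5.62-fold lower in MEF. Both differences exceeded the spread of the iPS libraries, which held 14.3 to 27.5 of Krt23 and 11.5 to 35.5 of Krt77. Krt4, a keratin of mucosal epithelia, was 3.97 to 16.4 in the iPS libraries, 1.15 in MEF at passage 2 and at 0 reads at passage 4 (limma -2.71 ± 0.451, adjusted p = 0.000487), and its call was lost under quantile normalization (limma -0.39, adjusted p = 0.392). The call of Krt71 (limma -2.13 ± 0.575, adjusted p = 0.00793) was lost without the MEF library at passage 2 (limma -1.63, adjusted p = 0.0901), with a pseudocount of 5 (-0.97) and under quantile normalization (0.28).

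Keratin partners were lower in MEF too. Of 16 genes for desmosomal plaque proteins, plakins and filament anchors, 11 were lower and 1 was higher. Among all genes tested 26.6% were called lower and 21.6% higher, shares that apply to each list in this comparison. The lowest were Dsg2, a desmosomal cadherin (limma log2 fold change -7.47 ± 0.12, adjusted p = 2.23e-09), and Evpl, the plaque protein envoplakin (-6.48 ± 0.278, limma adjusted p = 1.23e-07). Plec, which links intermediate filaments of many kinds, was higher (1.83 ± 0.112, limma adjusted p = 8.73e-07). Of 15 other intermediate filament genes, 9 were lower and 4 higher. The higher ones included Vim, the filament gene of fibroblasts (2.85 ± 0.178, limma adjusted p = 9.46e-07), and Gfap (2.98 ± 0.436, limma adjusted p = 0.000215), and the lower ones were led by Ina and Nefh (-6.58 and -5.42). Of 15 regulators of stratified epithelium 10 were lower, led by Grhl2 and Elf3 (-8.89 and -8.11), and 3 were higher, led by Tfap2b (5.31) and Gata3 (1.51). Of 17 cornified envelope and differentiation genes, 15 were lower, led by S100a14 and Lypd3 (-8.26 and -7.66), and Ivl alone was higher (1.67).

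Pre-iPS cells were compared with the 3 iPS lines, which asks whether keratin genes differ between partly and fully reprogrammed cells. All 5 simple and all 5 basal and stress keratins failed to reach the threshold, with medians of 0.15 and -0.92 on the log2 scale. With the passage as a block, Krt7 was -0.72 and Krt18 -0.68 (limma adjusted p = 0.00032 and 0.00194), both under the fold threshold. Krt20 was 0.83 and Krt5 -0.92 in that fit (limma adjusted p = 0.00639 and 0.0337), also under the fold threshold. Krt8 and Krt19 were 0.36 and 0.15 there (limma adjusted p = 0.0622 and 0.111). The other basal and stress keratins had limma adjusted p from 0.0604 to 0.114 in the blocked fit. Without the pre-iPS library at passage 5, Krt16 was called lower in pre-iPS (limma -2.22, adjusted p = 0.0404, against -1.08 with all libraries). Of the 25 keratin genes, 3 were higher in pre-iPS (Krt13, Krt26, Krt84) and 4 were lower (Krt23, Krt42, Krt71, Krt78). This is 12% and 16% of the keratins tested, beside 4.71% and 11.6% of all genes. Only Krt13 and Krt84 of these 7 reached 10 in both pre-iPS and iPS libraries. Krt26 passed the filter through the pre-iPS libraries alone and the 4 lower genes through iPS libraries alone, so the filter favoured these calls, and the 2 counts are a description. With the passage as a block Krt79 was also higher (limma adjusted p = 0.0401), and without the clone 1 library at passage 5 Krt77 was (limma 1.08, adjusted p = 0.0336).

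Krt84, a type II keratin of the hair shaft and of nail and tongue, was 157 in pre-iPS at passage 5 and 52.8 at passage 25. In the 6 iPS libraries it lay between 2.68 and 32.8, so the groups did not overlap (limma log2 fold change 3.33 ± 0.54, adjusted p = 0.00172). Krt26, a type I keratin of the inner root sheath, was 16.3 and 13.4 in pre-iPS and at most 1.78 in iPS (limma log2 fold change 3.23 ± 0.473, adjusted p = 0.00105). Since no other library reached 10, Krt26 was tested only because it is high in pre-iPS. The root sheath gene Krt71 had 0 reads in both pre-iPS libraries and 1.98 to 13.6 in iPS, at least 2.23-fold lower against a floor of 3 reads per library (limma -2.66 ± 0.575, adjusted p = 0.007). It passed the filter through 2 iPS libraries alone, and its call was lost under quantile normalization (limma -1.14, adjusted p = 0.108).

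Krt42, a type I gene next to Krt17 on chromosome 11, was 88, 41.7 and 100 at passage 5 in control iPS, clone 1 and clone 2, and 107, 47.2 and 129 at passage 25. In pre-iPS it was 9.18 and 2.88, and in MEF it held 0 reads at passage 2 and 1.05 at passage 4. The pre-iPS line thus stood below every iPS library (limma log2 fold change -3.67 ± 0.417, adjusted p = 0.000284). Krt23 was 5.1 and 3.84 in pre-iPS and 14.3 to 27.5 in iPS (limma -2.07 ± 0.297, adjusted p = 0.000941). Krt78, expressed in stratified epithelia, was 3.06 and 8.64 in pre-iPS and 17 to 86.1 in iPS (limma -2.50 ± 0.504, adjusted p = 0.00501), a call that was lost without the pre-iPS library at passage 5 (limma -1.88, adjusted p = 0.0629).

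Of the genes around the keratins, 0 of 16 keratin partners were called between pre-iPS and iPS. By adjusted p alone, without the fold threshold, 7 of the 16 were higher in pre-iPS and 0 lower, where 18.7% of all genes were higher and 20.8% lower. Dsg2 (limma 0.94 ± 0.12, adjusted p = 0.000536) and Pkp1, the plaque protein plakophilin 1 (limma 0.84 ± 0.159, adjusted p = 0.00378), had the largest differences of the 7. With the fold threshold 4.71% of all genes were called higher and 11.6% lower. Of 15 other intermediate filament genes, Nefl was higher in pre-iPS (limma 1.05 ± 0.142, adjusted p = 0.000688) and 3 were lower, led by Ina (-4.92) and Gfap (-1.68). Of 15 regulators of stratified epithelium 4 were higher, led by Ehf and Klf4 (1.81 and 1.38), and Tfap2c was lower (-1.59). Klf4 is also one of the factors delivered by virus. Of 17 cornified envelope and differentiation genes Tgm3 was higher (1.74) and 4 were lower, led by Sprr1b and Calml3 (-3.28 and -2.92).

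**Figure D3:**
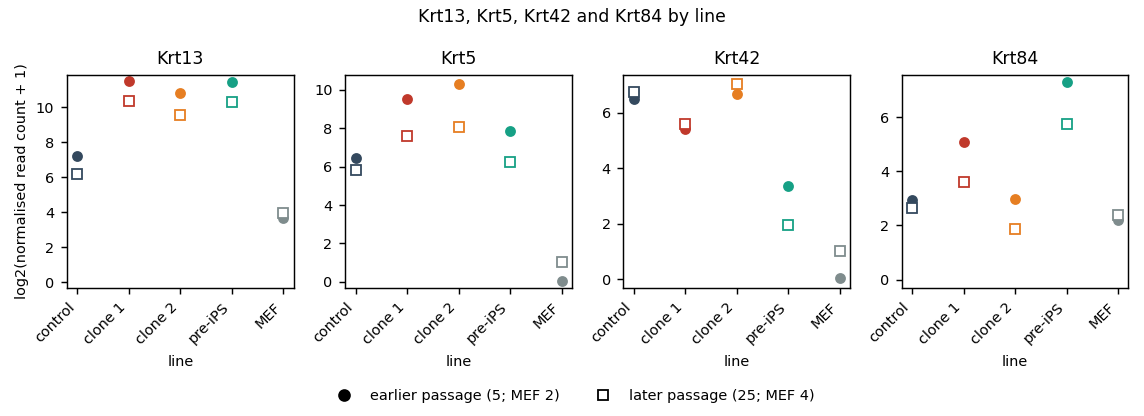
Log2(normalised read count + 1) of Krt13, Krt5, Krt42 and Krt84 in the 5 lines (horizontal axis), with filled circles for the earlier and open squares for the later passage. Krt13 is low in control iPS and MEF alone, Krt5 is highest in clones 1 and 2, Krt42 is low in pre-iPS and MEF, and Krt84 is highest in pre-iPS.

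Against MEF, 19 of 25 keratin genes were higher in pre-iPS and 0 were lower, where 22.4% of all genes were called higher and 20.9% lower. At an unadjusted p under 0.05, 0 were lower, and edgeR called 18 higher and 0 lower. The comparison shares its MEF libraries with the one above, so its calls are not separate evidence. Krt13, Krt26 and Krt84 were at 2701 and 1270, 16.3 and 13.4, and 157 and 52.8 in pre-iPS, and at 12 and 14.7, 0 and 0, and 3.59 and 4.22 in MEF. Krt7, Krt10, Krt14, Krt15, Krt71 and Krt222 did not reach the threshold, and Krt14 did without the pre-iPS library at passage 25 (limma 4.33, adjusted p = 0.0124). Krt4 was 9.18 and 4.8 in pre-iPS (limma 2.38 ± 0.552, adjusted p = 0.00418), a call lost under quantile normalization (limma 1.03, adjusted p = 0.0942). The Krt78 call (limma 1.8 ± 0.617, adjusted p = 0.0275) was lost without the pre-iPS library at passage 25 (1.18) or the MEF library at passage 2 (1.02), and that of Krt42 (2.12 ± 0.51, limma adjusted p = 0.00513) with a pseudocount of 5 (0.94) and under quantile normalization (0.84). Of the 11 genes that reached 10 in a MEF library, 6 were higher in pre-iPS. The median keratin log2 fold change was 3.98, and 3.03 with the 3 genes at 0 reads in MEF at their bound, against 0.058 over all genes.

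Krt13 set control iPS apart from both rNetrin-1-derived clones. KRT13 is the type I keratin of the suprabasal layers of mouth, oesophagus and other mucosae. It was 146 and 70.9 in control iPS at passages 5 and 25, 2825 and 1293 in clone 1, 1786 and 739 in clone 2, and 2701 and 1270 in pre-iPS. The lowest clone library was thus above the highest control library. The clones exceeded the control by 14.4-fold (limma log2 fold change 3.85 ± 0.492 SE, 95% interval 2.73 to 4.98, adjusted p = 0.006). Control iPS stood above MEF (12 and 14.7) and below every other reprogrammed library. Krt13 was therefore also higher in pre-iPS than in the mean of the iPS lines (limma 1.61 ± 0.464, adjusted p = 0.0248), and in that mean the control line is the low one. The clone difference lost its call without the control library at passage 25 (limma 3.33, adjusted p = 0.0647), and the pre-iPS difference without the pre-iPS library at passage 5 (limma 1.06, adjusted p = 0.23). A single control clone cannot tell a difference of that clone from a difference of the treatment.

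No other keratin gene was called between the clones and the control. The count was 1 higher and 0 lower of 25, where 0.99% of all genes were called higher and 1.12% lower. At an unadjusted p under 0.05, 2 were higher and 0 lower, and edgeR called 1 and 0. The other was Krt5, the basal keratin. It was 85.1 and 55.3 in control iPS, 743 and 189 in clone 1, 1237 and 270 in clone 2, and 227 and 73.9 in pre-iPS. All 4 clone libraries lay above both control libraries, but the passages differed widely (limma log2 fold change 2.74 ± 0.769, adjusted p = 0.0979). With the passage as a block Krt5 was called (2.74 ± 0.306, limma adjusted p = 0.00374), beside 1.61% of all genes higher in that fit. Its type I partner Krt14 was 187 and 234 in control iPS, 1327 and 305 in clone 1, 843 and 127 in clone 2, 382 and 37.4 in pre-iPS, and 13.5 and 24.1 in MEF. The Krt14 groups overlapped, as clone 2 at passage 25 was below the control (limma log2 fold change 1.13, 95% interval -1.23 to 3.49, adjusted p = 0.648). The simple keratins had a median of 0.24, and each had a 95% interval that spanned 0 in the fit without the passage. With the passage as a block Krt19 was 0.72 ± 0.0711 higher (limma adjusted p = 0.00234) and Krt18 was lower (-0.69 ± 0.114, limma adjusted p = 0.0135), both under the fold threshold. At each passage both clones lay above the control for Krt19 and below it for Krt18. The clones differed from each other by similar amounts with the passage as a block. Clone 2 against clone 1 was -0.62 for Krt19 and -0.72 for Krt18 (limma adjusted p = 0.0148 and 0.0354). Of the 4 other gene lists, 1 gene was called, the regulator Ehf, which was lower in the clones (limma -1.37 ± 0.167, adjusted p = 0.00523).

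Clone 2 was compared with clone 1, which asks how far clones made in the same way differ. Of the 25 keratin genes 0 were called, where 0.714% of all genes were higher and 0.252% lower in clone 2. At an unadjusted p under 0.05, 1 was higher and 3 were lower, and edgeR called 0. The estimates were below 0 for 21 of 25, with a median of -0.72 against -0.0067 over all genes. Of 6 pluripotency markers 3 were higher in clone 2, namely Nanog (limma 1.37 ± 0.196, adjusted p = 0.0221), Esrrb (limma 2.35 ± 0.424, adjusted p = 0.0401) and Zfp42 (limma 2.27 ± 0.274, adjusted p = 0.0121), and the summed level of all 6 was 116983 and 119241 in clone 1 and 156319 and 137881 in clone 2. Their part in the keratin estimates was not tested. With the passage as a block 2 keratin genes were called lower, Krt7 (-1.25, limma adjusted p = 0.00275) and Krt80 (-1.39, limma adjusted p = 0.0249), beside 0.621% of all genes. Krt80, a broadly expressed type II keratin, was 2074 and 871 in clone 1, 824 and 318 in clone 2, 815 and 559 in control iPS, 1346 and 446 in pre-iPS, and 125 and 145 in MEF. Krt1, the suprabasal type II keratin of epidermis, was 514 and 922 in clone 1 and 244 and 168 in clone 2, values that did not overlap but missed the threshold (limma -1.76 ± 0.49, adjusted p = 0.13). Of the other lists Synm was higher in clone 2, and Lor and Sprr3 of the cornified envelope list were lower (limma -2.36 and -3.83, adjusted p = 0.0354 and 0.0488).

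Passage 25 was compared with passage 5 within the 4 reprogrammed lines, with the line as a block. Of the 25, 9 were lower at passage 25 (36%) and 1 was higher (4%), where 1.29% of all 17075 genes were called lower and 0.398% higher. All 5 simple keratins fell, namely Krt19, Krt7, Krt8, Krt18 and Krt20. Of the stratified keratins Krt5, Krt17, Krt13 and Krt80 fell, and Krt79 alone rose. Of the 25 keratin genes, 11 were lower at passage 25 in each of the 4 lines, where 20.9% of all genes were, and 2 were higher in each, where 15.1% were.

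**Figure D4:**
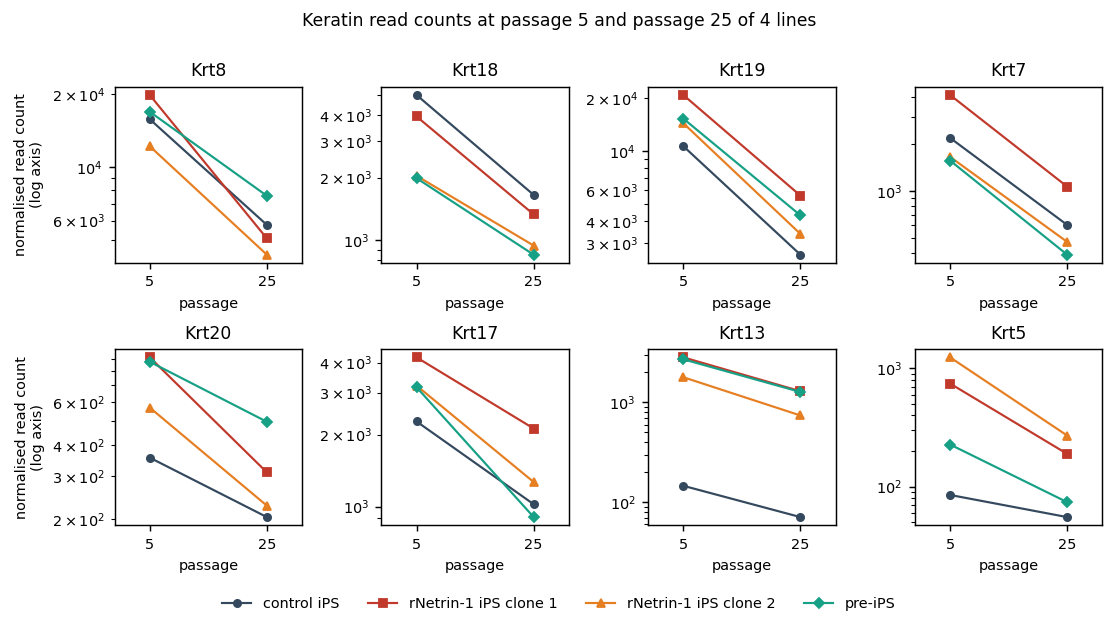
Normalised read counts (log axes that differ between panels) of Krt8, Krt18, Krt19, Krt7, Krt20, Krt17, Krt13 and Krt5 at passages 5 and 25, with a line for each of the 4 cell lines. Every line slopes down, and the slopes are nearly parallel for Krt19, Krt7 and Krt13 and differ more for Krt5.

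Krt19 lacks the tail domain of other keratins and pairs with KRT8. It went from 10649 to 2590 in control iPS, from 20727 to 5590 in clone 1, from 14361 to 3395 in clone 2 and from 15247 to 4324 in pre-iPS. The later passage kept 23.6 to 28.4% of the earlier value in the 4 lines (limma log2 fold change -1.96 ± 0.058 SE, adjusted p = 2.41e-05). Krt19 was 366 and 306 in MEF. Krt7 went from 2187 to 604 in control iPS, from 4123 to 1064 in clone 1, from 1653 to 470 in clone 2 and from 1565 to 389 in pre-iPS. It kept 24.8 to 28.5%, a spread as narrow as that of Krt19 (limma -1.91 ± 0.0657, adjusted p = 4.77e-05), so that at passage 25 Krt7 was below the MEF values in all lines but clone 1.

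Krt8 and Krt18, the partners of simple epithelia and of the first embryonic epithelium, fell together. Krt8 went to 36.6% of its passage 5 value in control iPS, 25.6% in clone 1, 35.6% in clone 2 and 45% in pre-iPS, where it moved from 16899 to 7597 (limma -1.52 ± 0.116, adjusted p = 0.00133). Krt18 was 5008 and 1652 in control iPS, 3948 and 1330 in clone 1, 2043 and 941 in clone 2, 1990 and 850 in pre-iPS, and 54.1 and 46.5 in MEF. Its passage 5 values in clone 2 and pre-iPS were not far above the passage 25 values of the other lines, but it was lower at passage 25 within each line (limma -1.38 ± 0.0931, adjusted p = 0.000858). Krt20, a keratin of intestinal epithelium, was 356 and 204 in control iPS, 911 and 310 in clone 1, 569 and 227 in clone 2, 874 and 498 in pre-iPS, and 66.7 and 48.8 in MEF. Its fall was the smallest of the simple keratins (limma -1.12 ± 0.148, adjusted p = 0.00657), and without either clone 1 library it was under the fold threshold (-0.98).

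Among the basal and stress keratins Krt17 fell in every line, from 2271 to 1023 in control iPS, 4210 to 2121 in clone 1, 3207 to 1267 in clone 2 and 3158 to 904 in pre-iPS (limma -1.32 ± 0.124, adjusted p = 0.00254). Krt5 kept 65% in control iPS and 21.8 to 32.5% in the other lines (limma -1.60 ± 0.249, adjusted p = 0.0118). Its call was lost without either clone 1 library or either pre-iPS library (limma adjusted p from 0.0612 to 0.0841). Krt16, a stress keratin of epidermis, split the lines. It was 978 and 1113 in control iPS, 1905 and 938 in clone 1, 716 and 221 in clone 2, 861 and 176 in pre-iPS, and 2.49 and 5.24 in MEF. Krt14 did the same, as it kept 125% in control iPS and 9.81 to 23% in the other lines. Neither passed the threshold over the 4 lines (limma adjusted p = 0.0688 for Krt16 and 0.0558 for Krt14). Without either control iPS library both were called (limma log2 fold change -1.67 and -2.72), and edgeR called Krt14 with all libraries (-1.92, adjusted p = 0.0472). Krt15, a basal keratin, was lower in every line at values of 33.7 or less (limma -1.04, adjusted p = 0.0868).

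Krt13 kept 41.4 to 48.6% of its value in each line (limma -1.13 ± 0.0741, adjusted p = 0.000858), control iPS with its low level included. Krt80 kept 33.1 to 68.6% (limma -1.19 ± 0.16, adjusted p = 0.00712), a call that was lost without either clone 1 library (limma -1.17, adjusted p = 0.0575 and 0.0567). The epidermal pair Krt1 and Krt10 did not reach the threshold. Krt1 was 350 and 831 in control iPS, 514 and 922 in clone 1, 244 and 168 in clone 2, 536 and 314 in pre-iPS, and 2.33 and 1.07 in MEF, higher at passage 25 in 2 lines and lower in 2 (limma 0.20, 95% interval -0.58 to 0.97). Krt10 was 151 and 220 in control iPS, 200 and 335 in clone 1, 160 and 240 in clone 2, and 194 and 205 in pre-iPS (limma 0.49 ± 0.143, adjusted p = 0.0711). Krt10 thus had a higher value at passage 25 in each of the 4 lines, but the change was under the threshold. Krt79, a keratin of sebaceous duct and hair canal, rose from 23.2 to 40.7, 27.5 to 40, 7.93 to 34.9 and 30.6 to 94.1 (limma 1.23 ± 0.293, adjusted p = 0.0407). The Krt79 call was lost when any of the 8 libraries was left out, which amounts to leaving out each of the 4 lines in turn.

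The hair keratins showed no common movement. Krt84 was lower at passage 25 in each line, from 157 to 52.8 in pre-iPS and from 32.8 to 11.3 in clone 1, and it missed the threshold (limma -1.11 ± 0.287, adjusted p = 0.051), where edgeR called it (-1.37, adjusted p = 0.0199). Krt26 and Krt71 had estimates of 0.57 and 0.79 with intervals that spanned 0. Krt23, Krt42 and Krt222 had estimates of -0.19, -0.14 and 0.047.

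**Figure D5:**
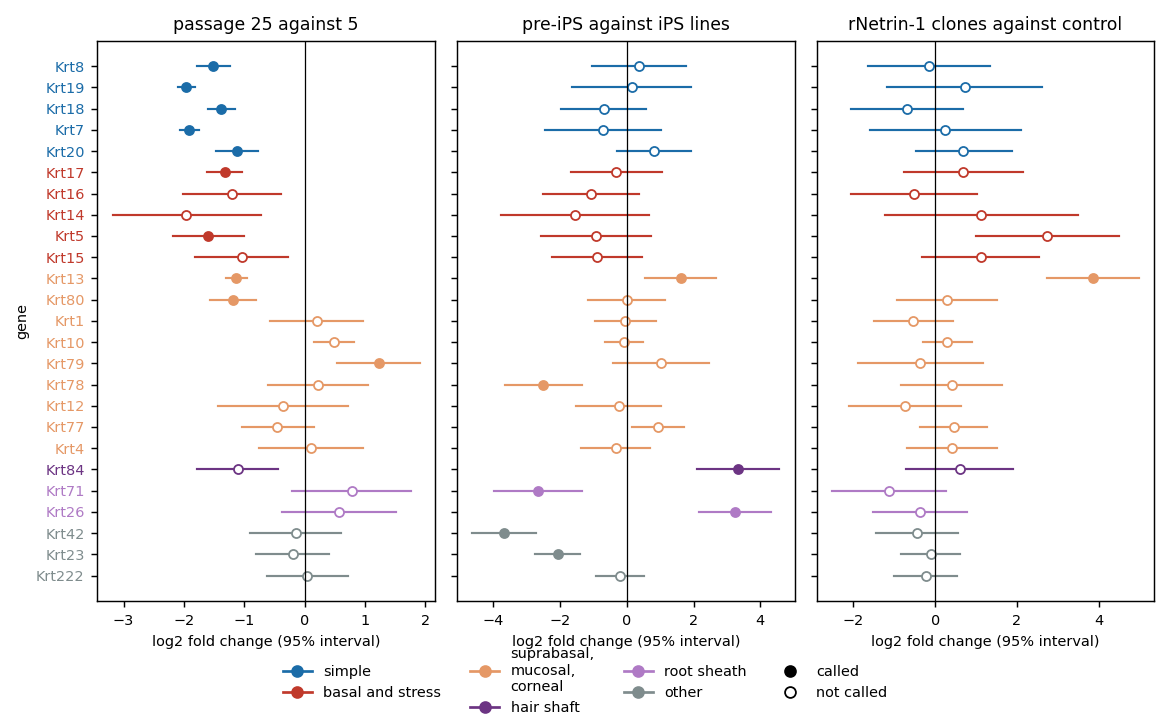
Log2 fold changes (horizontal axis) with 95% intervals from limma for the 25 keratin genes (rows, coloured by group) in 3 comparisons, with filled circles for called genes. The simple keratins lie to the left of 0 in the passage panel, between -1.96 and -1.12, and spread around 0 in the other panels, where Krt13 stands out at 3.85 in the clone panel.

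Genes around the keratin filament were compared between passages in the same fit. Of 15 other intermediate filament genes and of 16 keratin partners 0 were called in either direction, with medians of -0.21 and -0.30 against -0.012 over all genes. By adjusted p alone, 1 of the 15 (Nes) and 8 of the 16 were lower at passage 25 and 0 higher, where 7.63% of all genes were lower and 3.31% higher. The partners with the largest of these differences were Ppl, the plaque protein periplakin (limma -0.86 ± 0.0771, adjusted p = 0.00212), and Pkp3, plakophilin 3 (limma -0.73 ± 0.0577, adjusted p = 0.00135). Of 15 regulators of stratified epithelium 1 was called, Grhl3, an epidermal barrier regulator, which fell (limma -1.21 ± 0.0909, adjusted p = 0.00129). Of 17 cornified envelope and differentiation genes 5 fell and 0 rose. With the fold threshold 1.29% of all genes were called lower and 0.398% higher. The largest falls were in Ly6d (limma -2.51 ± 0.282, adjusted p = 0.00433) and Sprr3 (limma -1.40 ± 0.227, adjusted p = 0.0131).

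Markers of other cell types were examined beside the passage result. The summed values of 6 trophoblast markers were lower at passage 25 in each line, from 1256 to 813 in control iPS, 949 to 600 in clone 1, 862 to 482 in clone 2 and 1483 to 1048 in pre-iPS. Of these markers Eomes and Hand1 fell (limma -1.02 and -1.40, adjusted p = 0.00974 and 0.0134) and the other 4 were not called. Among all genes 1.29% were called lower. The sum of 6 markers of primitive or visceral endoderm was 1508 and 857 in control iPS, 1175 and 754 in clone 1, 534 and 562 in clone 2, and 408 and 479 in pre-iPS. The epithelial membrane genes Cdh1 and Epcam had passage estimates of -0.16 and -0.11 and were not called. Of the keratinocyte markers that are not keratins (Trp63, Ivl, Lor, Dsg3) 0 of 4 were called, and their sum was 231 and 480 in control iPS, 932 and 1240 in clone 1, 269 and 241 in clone 2, and 279 and 227 in pre-iPS. Fibroblast markers summed to 14505 to 26753 in the reprogrammed libraries, which the study's methods allow to be grown on irradiated MEF, and to 2175276 and 2300654 in MEF, and 0 of 6 were called with passage. The part of any of these cell types in the keratin result was not tested. The line labels were checked with Nanog, which was 2489 to 7441 in the iPS libraries, 311 and 349 in pre-iPS, and 34.5 and 36.9 in MEF.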

How the data were processed

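RNA of 10 libraries was sequenced as 50-base single reads after poly(A) selection, all in 1 lane. The submitters' processing notes name CASAVA 1.8.2, FastQC, TopHat2 2.0.8b, HTSeq 0.5.3p9, edgeR and the build mm10. The authors deposited 1 table of 18901 genes in the unit signal, edgeR pseudo-counts brought to a common library size, called normalised read counts here. Genes in it had at least 10 reads in total. Whole reads were recovered for at least 99.984% of values, within 0.05 of a read, and gave 38110410 to 52946856 reads on genes per library, so that counting error matters for keratin genes at a few reads only. The MEF libraries differed by more than counting, with a mean chi-square of 3.02 per gene where counting alone gives 1, and by less than the passages of the other lines (42.1 to 58.7).

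Lines were compared by limma 3.58.1 (R 4.3.3), trend option, on log2(value + 1), which understates changes of low genes. The 17075 genes that reached 10 in 2 or more libraries entered, the model had 1 mean per line, and p-values were adjusted by Benjamini-Hochberg over all of them. Standard errors and 95% intervals are limma's, and fold changes are on the log2(value + 1) scale. The passage fit left out MEF (8 libraries) and took the line as a block. Passage numbers pair libraries across these lines: the deviations at passage 25 and 5 correlated at 0.235 to 0.504 in the 6 pairs of lines, and the passage was a block in an alternative. Other alternatives were edgeR 4.0.16 on the whole reads, pseudocounts of 0.5 and 5, no filter, a mean of at least 50, quantile normalization, adjusted p alone, only the lines compared, and each library left out. The script was checked on simulated data.

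Every tested keratin gene is named, library values are given for those with a mean of at least 50, and of other lists the 2 largest called genes in each direction are named. Members and lists were chosen with earlier results of these data known. Lengths are those of the longest principal transcript in GENCODE M21, whose build is that of the files, and all 37 genes were found there. HTSeq's handling of strand and shared reads is not given in the sources used here.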

Additional observations from a re-analysis of the deposited data

Results flagged for a closer look

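In the 6 iPS libraries the passage 5 library of clone 1 lay apart for 3 keratin genes. The gap to the next library, as a part of the whole range, was 0.709 for Krt77 (35.5, next 18.5), 0.685 for Krt80 (2074, next 871) and 0.714 for Krt84 (32.8, next 11.3). In the 4 libraries of the rNetrin-1-derived clones the passage 25 library of clone 2 lay apart for Krt71, by 0.886 (11.6, next 3.08). These were 4 of 50 such checks. The limits used flag about 1 in 20 sets of independent normal values. That rate does not hold here, since the sets pool lines and passages and the 4 libraries are among the 6, so the count is a description. Between passages, 3 keratin genes moved one way in all 3 iPS lines and the other way in pre-iPS, differences that were not tested. The share of all genes with such a pattern was not counted, so the 3 are a description. Krt26 held at most 2 reads in any iPS library, and Krt42 went from 9 to 3 reads in pre-iPS, so these moves rest on a few reads. The log2 difference of Krt42 was 0.17 to 0.36 in the iPS lines and -1.39 in pre-iPS. That of Krt26 was 0.059 to 1.48 in the iPS lines and -0.26 in pre-iPS, and that of Krt77 was -0.91 to -0.48 in the iPS lines and 0.16 in pre-iPS.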

How the results depend on the processing

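Of 975 values of called keratin genes under the alternatives, 931 kept their direction and call, 43 lost the call and 1 reversed, Krt71 in MEF against iPS, at 0.28 under quantile normalization. The total leaves out called genes that an alternative did not test, and adjusted p alone keeps every call by its construction. Counts of called keratins moved as follows. With a mean of at least 50 fewer genes were tested, and the counts were 12 lower in MEF than in iPS, 11 higher in pre-iPS than in MEF, 1 higher and 1 lower in pre-iPS against iPS, and 0 higher with passage. Quantile normalization gave 1 higher in MEF (Krt15), and no filter gave 7 lower in pre-iPS against iPS. With the replicate block, the passage, 2 were higher in the clones than in the control and 2 were lower in clone 2 than in clone 1, all genes called between clones and control came to 564, and Krt79 was gained in pre-iPS. It changed no other keratin call, and MEF has no such fit. With no replicate block for the line, 0 were called lower and 0 higher with passage; that fit leaves differences in level between lines in its error. Leaving out 1 library gave 0 to 2 higher in the clones (0 without control iPS at passage 25, 2 without clone 2 at passage 25), 0 to 1 lower in pre-iPS against MEF (Krt15, without pre-iPS at passage 5), and with passage 0 to 0 higher and 6 to 12 lower. The 6 were found without either clone 1 library, and the simple keratins Krt7, Krt8, Krt18 and Krt19 were called in each. Where a library was left out of a comparison between lines, its lone partner was assumed to vary like the other lines. In the passage fit a lone partner is taken up by the term of its line, so leaving out either library drops that line. A gene with a few reads, such as Krt26 or Krt71, is limited by depth.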
